A study of Mus musculus with 14 samples.

Results

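The acute-phase genes Lcn2, Saa1, Saa2, Saa3, Hp, Orm1 and Steap4 were followed through the chemical conversion of mouse embryonic fibroblasts towards retinal pigment epithelium (RPE), the pigmented layer that supports the photoreceptors. These 7 genes were taken by symbol from a count table of 55291 symbols. The list was chosen by the levels of these genes in the same libraries, which were already known, so those levels and the differences between groups are given as a description, with no test. All 7 passed the filter on low counts that left 20562 genes.

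The acute-phase response is the change in secreted proteins that follows injury or infection. Interleukin-1, tumour necrosis factor and interleukin-6 act on liver, and on many other cells, through NF-kappaB, the C/EBP factors and STAT3, and raise the transcription of the positive acute-phase genes. Lcn2 encodes lipocalin-2, a secreted protein that binds bacterial siderophores and so withholds iron; in the brain it is known as a product of reactive astrocytes, and in the eye it has been studied in RPE. Saa1 and Saa2 encode the serum amyloid A proteins that travel on high-density lipoprotein, and Saa3 encodes the form made mainly outside the liver in mouse. Hp encodes haptoglobin, which captures free haemoglobin, Orm1 encodes the plasma carrier orosomucoid, and Steap4 encodes a membrane metalloreductase of iron and copper that inflammatory cytokines induce in fat.

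All groups came from C57BL/6J mice. D7 and D18 were fibroblasts kept for 7 and 18 days in the M7 medium, which holds bFGF and the small molecules CHIR-99021, LDN193189, A 83-01, Hh-Ag1.5, RG108, CKI-7 and BMS-345541, the last of these an inhibitor of the kinase that activates NF-kappaB. D32 was the end product at day 32 (ciRPE in the labels), reached in the M3 medium with Y27632, Nicotinamide, Retinoic acid and Activin A in place of the M7 molecules. MEF were the starting fibroblasts of E13.5 embryos, and P-RPE was primary RPE with no treatment. There were 3 libraries in each of D7, D18, D32 and MEF, and 2 in P-RPE. Cells were scraped where the conversion looked successful, so D7, D18 and D32 are selected cells of mixed cultures. The labels give MEF the M7 medium as treatment, and they give all groups, P-RPE included, E13.5 embryos as source. They do not say whether replicates were separate cultures or animals, so the spread between them, and the p-values given for other genes, may be technical.

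The 250 bases before the RefSeq start of each gene (GRCm38.p6) are shown because the 5 genes with an entry include the 3 with the highest levels in the converted cells, and because Saa1 and Saa2 have nearly the same one. They are written 5′ to 3′ on the strand of the gene, from Lcn2 (chr2:32387740-32387989, minus strand), Saa1 (chr7:46742981-46743230, minus strand), Saa2 (chr7:46751583-46751832, plus strand), Saa3 (chr7:46715677-46715926, minus strand) and Steap4 (chr5:7960222-7960471, plus strand). Capitals mark every match, on either strand, to the C/EBP motif TTNNGCAA, the STAT motif TTCNNNGAA or the NF-kappaB consensus. Hp and Orm1 are named only.
Lcn2: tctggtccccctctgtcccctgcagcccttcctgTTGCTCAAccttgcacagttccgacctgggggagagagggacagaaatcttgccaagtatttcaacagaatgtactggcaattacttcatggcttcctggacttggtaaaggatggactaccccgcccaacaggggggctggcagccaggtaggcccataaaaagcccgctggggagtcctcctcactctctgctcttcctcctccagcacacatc
Saa1: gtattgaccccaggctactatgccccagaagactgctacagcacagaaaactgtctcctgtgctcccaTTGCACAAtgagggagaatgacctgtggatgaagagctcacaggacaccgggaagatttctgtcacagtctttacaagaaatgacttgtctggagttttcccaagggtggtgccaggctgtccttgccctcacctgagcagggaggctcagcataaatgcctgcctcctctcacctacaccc
Saa2: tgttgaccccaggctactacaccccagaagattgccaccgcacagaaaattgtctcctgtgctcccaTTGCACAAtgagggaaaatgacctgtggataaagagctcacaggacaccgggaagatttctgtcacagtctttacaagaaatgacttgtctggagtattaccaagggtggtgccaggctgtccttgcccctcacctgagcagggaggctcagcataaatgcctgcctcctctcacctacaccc
Saa3: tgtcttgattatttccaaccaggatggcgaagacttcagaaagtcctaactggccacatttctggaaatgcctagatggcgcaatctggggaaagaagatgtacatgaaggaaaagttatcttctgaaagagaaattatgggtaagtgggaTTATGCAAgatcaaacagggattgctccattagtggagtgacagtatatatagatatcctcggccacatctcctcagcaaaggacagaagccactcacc
Steap4: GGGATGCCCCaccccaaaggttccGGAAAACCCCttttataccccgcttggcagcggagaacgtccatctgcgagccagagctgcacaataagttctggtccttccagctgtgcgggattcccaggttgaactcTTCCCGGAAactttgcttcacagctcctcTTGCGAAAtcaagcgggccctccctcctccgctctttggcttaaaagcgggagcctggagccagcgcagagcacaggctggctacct

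Each of the 5 held 1 match to the C/EBP motif, which 9.56% of 32851 promoters of this length hold. The match began 216 bases before the start in Lcn2 (TTGCTCAA), 182 in Saa1 and 183 in Saa2 (TTGCACAA in both), 99 in Saa3 (TTATGCAA) and 87 in Steap4 (TTGCGAAA). Steap4 alone of the 5 also held a STAT match (TTCCCGGAA, 116 bases before the start) and matches to the NF-kappaB consensus (GGGATGCCCC and GGAAAACCCC, 250 and 226 bases before it). The STAT motif is in 7.02% of all promoters and the NF-kappaB consensus in 7.25%, and none of the matches overlapped another. Saa1 and Saa2 were 95.6% identical over these bases, so their shared match is 1 stretch of a duplicated promoter; Saa3 was 59.4% identical to Saa1 and 62.5% to Saa2. These are matches of letters, and they do not show that a factor was bound.

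The genes lie at 5 places in GRCm38 (GENCODE vM21). Saa3 (chr7:46711998-46715700), Saa1 (chr7:46740497-46742980) and Saa2 (chr7:46751790-46754313) form a cluster with Saa4, in which 8809 bases separate Saa1 from Saa2. Lcn2 is at chr2:32384633-32388252, Hp at chr8:109575128-109579172, Orm1 at chr4:63344560-63348163 beside Orm3 and Orm2, and Steap4 at chr5:7960457-7982213. No annotated gene overlapped any of them. RefSeq and GENCODE place some starts differently. The promoter stretch printed for Lcn2 lies within its GENCODE gene, and those for Saa2, Saa3 and Steap4 reach into theirs. The distances of the motif matches are from the RefSeq starts. The transcripts of Saa1 and Saa2 were 94.4% identical and shared 13.2% of 50-base windows, although 0 of 460 windows of 150 bases, the length of a read. Orm1 shared 20.4% of 50-base windows with Orm2. How reads with several matches were counted is not stated, so the split of reads within each of these pairs is uncertain.

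Library totals ran between 32352405 and 41390196 counts, so 1 count was worth 0.0227 to 0.0305 CPM (counts per 1000000, on library sizes scaled by TMM). Libraries of a group varied least in MEF (biological coefficient of variation 0.0426) and most in D18 (0.250). RPE markers summed to between 2973 and 5819 CPM in D32, against 36111 to 40143 CPM in P-RPE, with all 10 at 1 CPM or more in each, and to no more than 25.3 CPM in any library of MEF, D7 or D18. Fibroblast markers summed to between 16699 and 25832 CPM in D32, against 22114 to 23185 CPM in MEF and 1651 to 2014 CPM in P-RPE. Astrocyte markers were highest in D18, at 26661 to 39623 CPM. In bulk RNA, fewer cells of a type and less RNA per cell cannot be told apart.

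Lcn2 had no count in MEF, appeared by day 7, was highest at day 18 and was lower again at day 32. It had 0 counts in each of the 3 MEF libraries. It had 74.6, 62.1 and 65.8 CPM in D7, 3181, 5988 and 3296 CPM in D18, 406, 474 and 408 CPM in D32, and 0.616 and 1.58 CPM in P-RPE. The libraries of no group overlapped those of another: D18 was highest, followed by D32, D7, P-RPE and MEF. At day 18 Lcn2 took between 0.297% and 0.600% of all counts in a library.

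The group means of Lcn2 were 67.5 ± 6.40 CPM in D7, 4155 ± 1589 CPM in D18, 429 ± 38.7 CPM in D32 (SD, n = 3 each) and 1.10 ± 0.683 CPM in P-RPE (SD, n = 2). Against MEF the mean was at least 2333-fold higher in D7 and at least 14898-fold higher in D32, taking a floor of 3 counts over the MEF group. D18 stood 61.5-fold above D7, a log2 difference of 5.94 (SE 0.32). D32 stood below D18 by a log2 difference of -3.28 (SE 0.28) and above P-RPE by 8.60 (SE 0.45), a 391-fold ratio on 81 counts in P-RPE; that difference was 8.08 without P-RPE replicate 1 and 9.44 without P-RPE replicate 2. Lcn2 in D32 was thus far above both the fibroblasts it came from and the primary tissue.

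**Figure D1:**
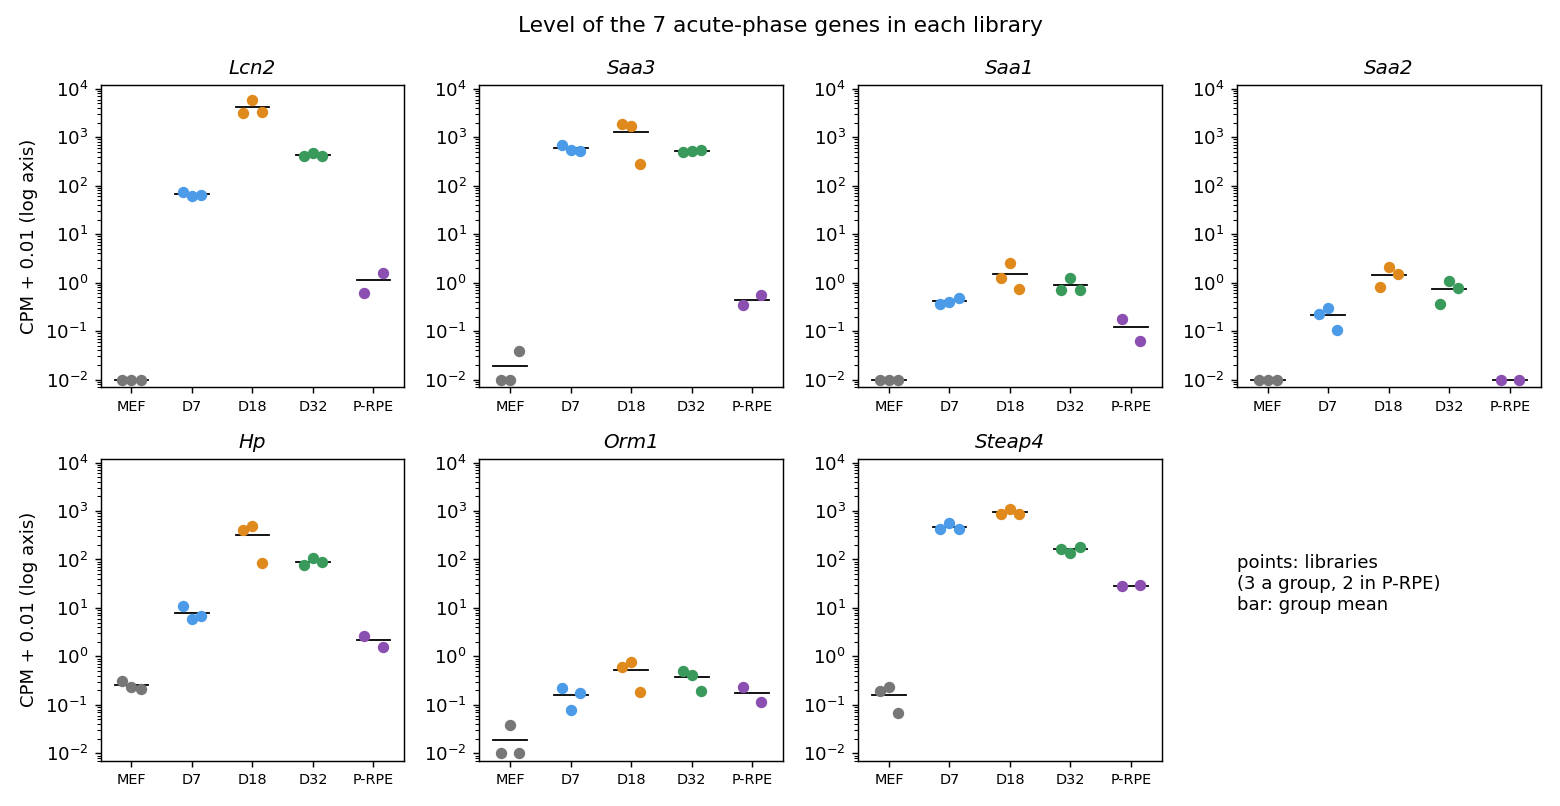
Level of each of the 7 acute-phase genes in every library, as CPM + 0.01 on a log axis, by group; points are libraries (3 a group, 2 in P-RPE), bars are group means, and a point at the bottom (0.01) is a library with 0 counts. Lcn2, Saa3, Hp and Steap4 reached 485 CPM or more in their highest library, while Saa1, Saa2 and Orm1 stayed at 2.51 CPM or less in every library.

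Saa3, the serum amyloid A form of extrahepatic tissue, was already high at day 7. It had 1 count in the 3 MEF libraries together. It had 704, 550 and 531 CPM in D7, 1847, 1691 and 276 CPM in D18, 494, 511 and 535 CPM in D32, and 0.336 and 0.536 CPM in P-RPE. D7 and D32 were each even among their libraries, at 595 ± 95.1 and 514 ± 20.8 CPM (SD, n = 3 each), and D18 was not, at 1271 ± 865 CPM (SD, n = 3): 1 of its libraries lay below every library of D7 and D32 and the others above all of them.

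Between D7 and MEF the ratio of summed Saa3 counts was 61413, with an exact 95% counting interval from 11022 to 2425710; the interval covers counting error only. Saa3 in D32 stood 1178-fold above P-RPE, a log2 difference of 10.19 (SE 0.90). D18 against D7 gave a log2 difference of 1.10 (SE 0.47) and D32 against D18 gave -1.31 (SE 0.47), with libraries that overlapped in both comparisons. The D32 and D7 libraries also overlapped.

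The balance of Lcn2 and Saa3 differed between the stages. The ratio of Lcn2 counts to Saa3 counts, whose size depends on the lengths of the 2 transcripts and of which only the change between groups is read, was 0.106 to 0.124 in the D7 libraries. It was 1.72, 3.54 and 11.9 in the D18 libraries and 0.762 to 0.928 in the D32 libraries. In P-RPE it was 1.83 and 2.95, on 81 counts of Lcn2 and 32 of Saa3 in both libraries together. The ratio did not overlap between D7, D18 and D32, whichever D18 library is taken.

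Saa1 and Saa2, the forms that liver releases into plasma, were far below Saa3 in D7, D18 and D32 and at 0 counts in MEF. Saa1 had 0 counts in MEF, 0.353, 0.386 and 0.471 CPM in D7, 1.26, 2.51 and 0.741 CPM in D18, 0.701, 1.21 and 0.705 CPM in D32, and 0.168 and 0.0536 CPM in P-RPE. Saa2 had 0 counts in MEF, 0.217, 0.295 and 0.0942 CPM in D7, 0.815, 2.08 and 1.48 CPM in D18, 0.350, 1.06 and 0.783 CPM in D32, and 0 counts in P-RPE. Both lay above D7 in every D18 library, and their D32 libraries overlapped those of D18.

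The summed counts behind these values were 50 in D7, 165 in D18 and 101 in D32 for Saa1, and 25, 159 and 84 for Saa2. D32 was 7.88-fold above P-RPE for Saa1 on 8 counts in P-RPE, and without P-RPE replicate 1 the log2 difference was 3.94 in place of 2.95, and 2.35 without P-RPE replicate 2. For Saa2, D32 was at least 17.6-fold higher than P-RPE, and at least 25.1-fold higher than MEF. Against MEF, D7 was at least 14.1-fold higher for Saa1 and at least 7.05-fold higher for Saa2. Per kb of transcript (CPM over the length of the first annotated transcript), Saa3 was at 2290 in D18 against 2.47 for Saa1 and 2.41 for Saa2, so nearly all the signal of these 3 serum amyloid A genes was from Saa3.

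Hp, the haemoglobin scavenger, was higher at day 7 and again at day 18. It had 0.305, 0.221 and 0.199 CPM in MEF, 10.7, 6.04 and 6.92 CPM in D7, 411, 485 and 85.4 CPM in D18, 77.6, 105 and 89.1 CPM in D32, and 2.66 and 1.58 CPM in P-RPE. D18 stood 41.4-fold above D7, a log2 difference of 5.38 (SE 0.56), and D7 stood 32.7-fold above MEF, a difference of 5.02 (SE 0.76). The day 18 library with little Saa3 had the least Hp of the 3 and fell within the range of D32, so D32 and D18 overlapped in spite of a log2 difference of -1.85 (SE 0.47). D32 was 42.7-fold above P-RPE.

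Orm1, the plasma carrier, stayed below 1 CPM in every library. It had 1 count in MEF in all, 0.217, 0.0682 and 0.165 CPM in D7, 0.590, 0.747 and 0.171 CPM in D18, 0.501, 0.396 and 0.183 CPM in D32, and 0.224 and 0.107 CPM in P-RPE. The ratio of summed counts between D7 and MEF was 15.2, with a 95% counting interval from 2.40 to 634. Apart from MEF, neighbouring groups overlapped, and D32 did not stand clear of P-RPE (log2 difference 1.11, SE 0.80, and 1.72 without P-RPE replicate 1). Without MEF replicate 2, which held the 1 count, the log2 difference between D7 and MEF moved to 5.51 from 3.55.

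Steap4, the metalloreductase, was high at day 7, highest at day 18 and the one of the 7 with a clear level in primary RPE. It had 0.183, 0.221 and 0.0567 CPM in MEF, 423, 558 and 435 CPM in D7, 872, 1078 and 881 CPM in D18, 167, 133 and 184 CPM in D32, and 27.8 and 29.1 CPM in P-RPE. No libraries of different groups overlapped: D18 was highest, followed by D7, D32, P-RPE and MEF. Its mean was 944 ± 116 CPM in D18 (SD, n = 3) and 28.5 ± 0.932 CPM in P-RPE (SD, n = 2).

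D7 stood 3072-fold above MEF for Steap4, and D18 stood 2.00-fold above D7 (log2 difference 1.00, SE 0.16). D32 lay below D18 by -2.55 (SE 0.17) and was also below D7, at 161 ± 25.9 CPM in D32 against 472 ± 74.9 CPM in D7 (SD, n = 3 each). Against P-RPE, D32 was 5.66-fold higher (log2 difference 2.50, SE 0.20). Of the 6 genes clear of P-RPE, Steap4 had the smallest such ratio.

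Per kb of transcript, the order of the 4 abundant genes changed at each stage. In D7, Saa3 was at 1072 CPM per kb, Steap4 at 150, Lcn2 at 73.8 and Hp at 5.87. In D18, Lcn2 was at 4541 CPM per kb, Saa3 at 2290, Steap4 at 299 and Hp at 243. In D32, Saa3 was at 925 CPM per kb, Lcn2 at 469, Hp at 67.4 and Steap4 at 51.1, and in P-RPE Steap4 was at 9.02, Hp at 1.58, Lcn2 at 1.20 and Saa3 at 0.785. By group means, the order of these 4 was the same in D7, D18 and D32 with the merged length of all annotated exons. With that length Hp was at 56.4 in D32, against 51.1 for Steap4, and single libraries were not compared. In D18 Lcn2 was above Saa3 per kb of transcript in all 3 libraries. Hp and Steap4 were not separated there, with Hp above Steap4 in replicates 1 and 2 and below it in replicate 3.

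Counted by whether the libraries of 2 groups overlap, all 7 genes were higher in D7 than in MEF, where 34.5% of all genes tested were, and all 7 were higher in D32 than in MEF, where 39.3% were. In D18 against D7, 5 were higher and Saa3 and Orm1 overlapped (31.7% of all genes were higher). In D32 against D18, Lcn2 and Steap4 were lower and the other 5 overlapped (27.9% of all genes were lower). In D32 against P-RPE, 6 were higher and Orm1 overlapped (32.7% of all genes were higher). Since the genes were picked with these values known, nothing is read from their counts against these shares.

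**Figure D2:**
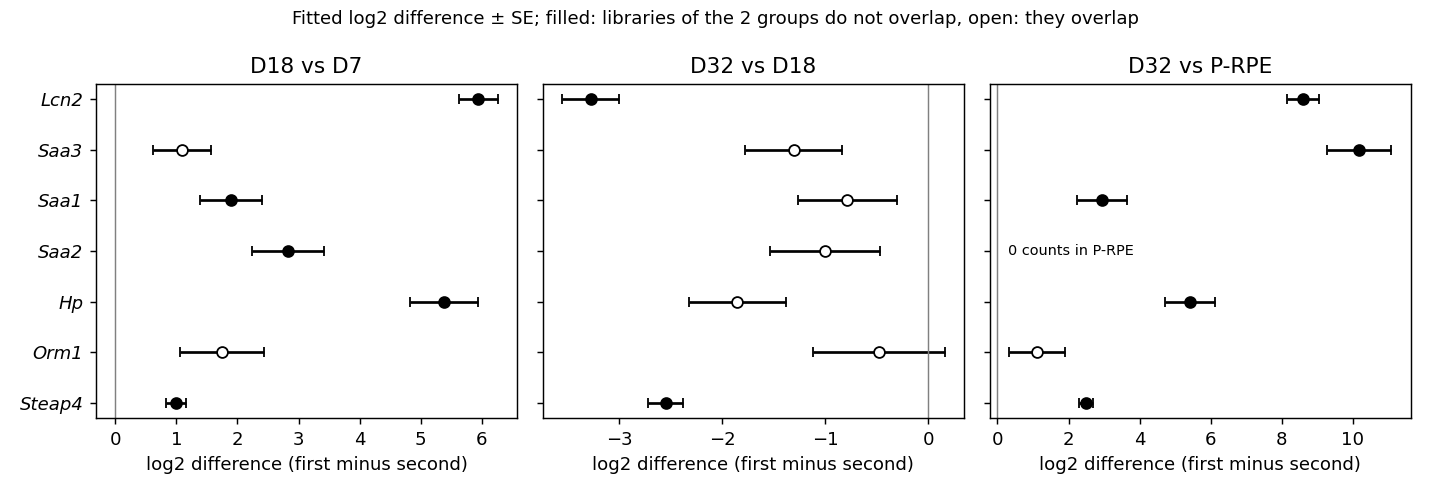
Fitted log2 difference of each acute-phase gene (x axis, first group minus second) with its SE, in D18 vs D7, D32 vs D18 and D32 vs P-RPE; filled points mark genes whose libraries did not overlap between the groups, open points those that did. Lcn2 (5.94) and Hp (5.38) lay farthest right in D18 vs D7, Lcn2 (-3.28) farthest left in D32 vs D18, and Saa3 (10.19) farthest right in D32 vs P-RPE, where Saa2 had 0 counts in P-RPE and is not drawn.

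The 3 day 18 libraries did not vary alike. Saa3, Hp, Saa1 and Orm1 were lowest in replicate 3, and Lcn2, Steap4 and Saa2 were lowest in replicate 1. The same replicate 3 was lowest for 15 of 24 other positive acute-phase genes (62.5%), against 30.6% of all genes tested. In the other lists the share ran between 25% of inducing cytokines and 100% of the 5 negative acute-phase genes, with 63.6% of pan-reactive genes and 62.5% of cytokine receptor genes. Fibroblast markers summed to 16707, 14379 and 3847 CPM in D18 replicates 1, 2 and 3, all 10 of them at a mean of 1 CPM or more, and astrocyte markers to 39623, 26661 and 36343 CPM. In the same order, macrophage markers summed to 15.4, 44.9 and 67.5 CPM and adipocyte markers to 56.0, 68.1 and 29.5 CPM. The part of fibroblast content, or of any other of these cell types, in the low Saa3 and Hp of replicate 3 was not tested.

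Without D18 replicate 3, the log2 difference of Saa3 between D18 and D7 was 1.57 and that between D32 and D18 was -1.79. For Hp the same values were 5.83 and -2.31. The number of the 7 genes whose libraries did not overlap was then 7 in D18 against D7 and 6 in D32 against D18. With fewer libraries in D18, groups separate more easily for any gene. The share over all genes was not counted without that library, so nothing is read from these numbers. Lcn2 and Steap4 did not overlap between these groups with or without that library.

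**Figure D3:**
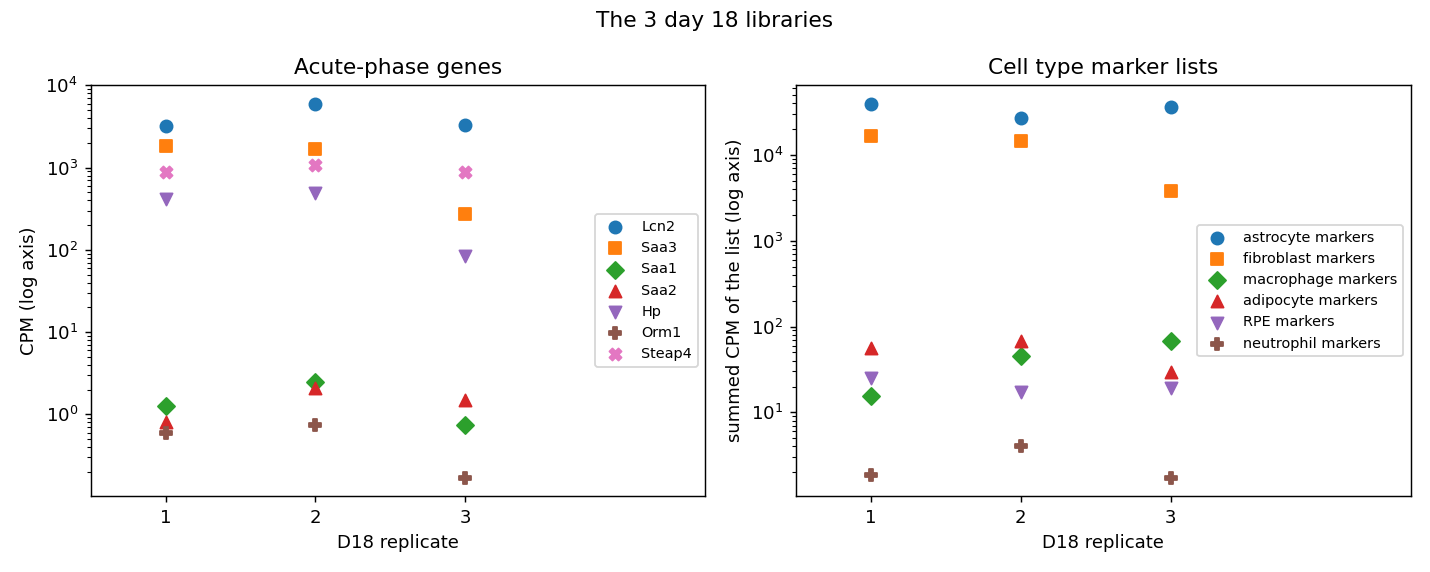
The 3 day 18 libraries by replicate number: CPM of the 7 acute-phase genes (left) and summed CPM of 6 marker lists (right), both on log axes; each point is 1 library. Replicate 3 had 276 CPM of Saa3, against 1847 and 1691 CPM in the others, and 3847 CPM of fibroblast markers, against 16707 and 14379 CPM.

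Markers of liver cells and neutrophils were low in D7 and D18. Those of fat cells were higher in D18, D32 and P-RPE than in D7 or MEF, and those of astrocytes were highest in D18. Hepatocyte markers summed to between 10.9 and 12.5 CPM in D7 and between 9.06 and 26.0 CPM in D18, with Cyp7a1 and Serpina1c at 0 in both; Alb made up 10.7 CPM of the D7 mean. In D32 they summed to between 1433 and 2628 CPM, against 21043 to 24071 CPM in P-RPE, with 2 of 10 at 1 CPM or more in each, and most of it was Ttr, which RPE also makes. Adipocyte markers, from cells known for Steap4, summed to between 24.0 and 27.0 CPM in MEF, 14.2 and 17.7 CPM in D7 and 29.5 and 68.1 CPM in D18, with 4, 3 and 8 of 10 at 1 CPM or more; Lep was at 0 in MEF and D7. The adipocyte sums were as high in D32, at 43.2 to 71.2 CPM, and in P-RPE, at 48.7 to 61.9 CPM. In D18 Plin1 averaged 6.40 CPM, against 0.0773 CPM in D7, and Adipoq 1.59 CPM, against 0.0157 CPM in D7. Pparg alone of this list had a lower mean in D18 than in MEF, at 4.25 against 11.9 CPM, with 31.4 CPM in D32. Neutrophil markers, from cells that store lipocalin-2 in granules, summed to between 0.259 and 0.598 CPM in D7 and between 1.74 and 4.00 CPM in D18, with S100a9, Cxcr2, Ly6g and Retnlg at 0 in both. In D32 they reached 67.5 to 70.9 CPM, most of it Ltf, with Ly6g at 0, against 5.01 to 5.25 CPM in P-RPE. Macrophage markers were lower in D32 (395 to 777 CPM) than in P-RPE (2440 to 2593 CPM), and astrocyte markers higher (2386 to 2455 CPM in D32 against 660 to 1130 CPM in P-RPE). The part of these cell types in the levels of the 7 genes was not tested, in D18 or in D32.

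The other positive acute-phase genes were mostly higher after 7 days and again after 18. Of 36 listed, 24 were tested; 20 rose and 2 fell in D7 against MEF (median log2 difference 3.66, against 0.04 over all genes tested; of all genes 28.5% rose and 26.5% fell). C3, the central complement component, rose by 9.03 on the log2 scale (adjusted p = 3.0e-12, edgeR's quasi-likelihood test) to 784 CPM in D7, against 1.50 CPM in MEF. Serpina3n, a serine protease inhibitor, rose by 6.29 (adjusted p = 5.5e-07). Il1rn, the interleukin-1 receptor antagonist, and Ptx3, a long pentraxin, were the 2 that fell, with log2 differences of -6.14 (adjusted p = 3.7e-09) and -1.97 (adjusted p = 0.0011).

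Between D18 and D7, 19 of the 24 rose and 2 fell (median log2 difference 3.17, against 0 over all genes; of all genes 29.2% rose and 27.4% fell). Itih3, a hyaluronan-binding plasma protein, rose by 5.92 (adjusted p = 6.1e-10) and C4b, a complement component, by 5.12 (adjusted p = 4.6e-11). In D32 against D18, 16 fell and 2 rose (median -1.69, against 0.07; of all genes 29.9% rose and 26.1% fell): Agt, which encodes angiotensinogen, had a log2 difference of -4.58 (adjusted p = 2.4e-10), while Il1rn rose by 11.86 (adjusted p = 1.1e-10) to 219 CPM in D32, against 0.0562 CPM in D18. In D32 against MEF 23 rose and none fell (35.6% and 24.6% of all genes), and in D32 against P-RPE 15 rose and 4 fell (27.1% and 26.8% of all genes), C3 by 5.65 (adjusted p = 8.3e-10) and Lrg1, a secreted leucine-rich glycoprotein, by -1.55 (adjusted p = 0.0016).

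**Figure D4:**
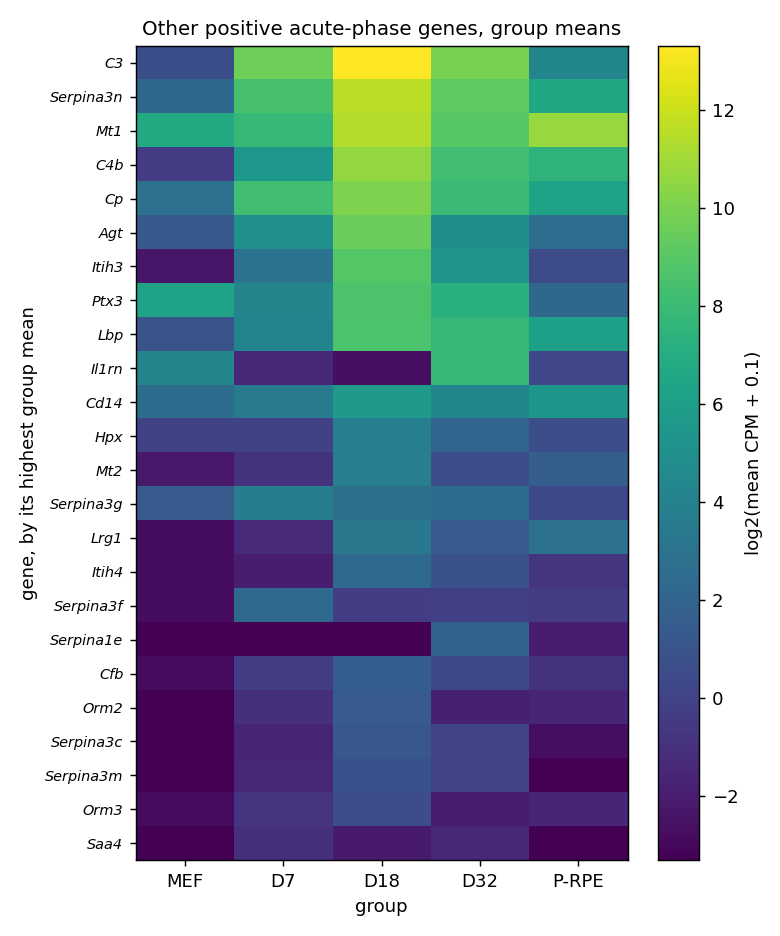
Mean level of the 24 other positive acute-phase genes that were tested (rows, by their highest group mean) in each group (columns), as log2(mean CPM + 0.1). In D18 against D7 19 of the 24 rose; C3 was the highest gene at 10222 CPM in D18, and Il1rn was brightest in D32 (219 CPM).

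Of the cytokines that induce acute-phase genes, 12 of 14 were tested. In D7 against MEF 3 rose and 2 fell (28.5% and 26.5% of all genes), and in D18 against D7 3 rose and 3 fell (29.2% and 27.4% of all genes). Il33, an alarmin of the interleukin-1 family, rose by 5.90 in D7 against MEF (adjusted p = 2.6e-07), the largest rise of the list. In D18 against D7 the 3 that rose were Il6, Ctf1 and Il18. Il6 rose by 2.33 to a mean of 3.43 CPM in D18 against 0.676 CPM in D7 (adjusted p = 0.0036). Its libraries overlapped, at 7.11, 2.11 and 1.08 CPM in D18 and 0.489, 0.409 and 1.13 CPM in D7. The highest group mean of Il6 was not in D18 but in D32, at 20.4 CPM, against 2.36 CPM in P-RPE. Every D32 library was above every D18 library for Il6, whereas Lcn2 and Steap4 were lower in D32 than in D18. Ctf1, an interleukin-6 family cytokine, rose by 2.12 (adjusted p = 1.3e-07), and Il18, of the interleukin-1 family, by 1.76 (adjusted p = 1.5e-05). Lif, another interleukin-6 family cytokine, had a log2 difference of -2.85 (adjusted p = 6.2e-08). Tnf and Il1b, the genes of tumour necrosis factor and interleukin-1 beta, were at 0.0377 and 0.0282 CPM in D18, where Lcn2 was highest. In D32 against D18, 7 rose and 1 fell (29.9% and 26.1% of all genes), among them Tnf by 6.45 (adjusted p = 1.9e-07) and Il1b by 6.19 (adjusted p = 4.2e-06).

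Of the 16 cytokine receptor genes, 8 rose and 4 fell in D18 against D7 (29.2% and 27.4% of all genes). Il6st, the signalling subunit shared by interleukin-6 family receptors, rose by 2.37 (adjusted p = 2.2e-08) to 1429.9 CPM in D18, against 276 CPM in D7, and fell by 1.26 in D32 against D18 (adjusted p = 9.2e-06). Of 23 transcription factor and feedback genes tested of 24, 13 rose and 3 fell in D7 against MEF (28.5% and 26.5% of all genes). Socs3, a feedback inhibitor that STAT3 induces, rose by 3.93 (adjusted p = 1.8e-09) and Cebpa, a C/EBP factor, by 2.88 (adjusted p = 1.6e-08). In D18 against D7, 6 rose and 4 fell. Of the C/EBP genes Cebpb rose by 3.59 (adjusted p = 1.3e-05) and Cebpa had a log2 difference of -0.84 (adjusted p = 0.0013). Cebpd was also called higher, at 218 CPM in D18 against 109 CPM in D7 (log2 difference 0.996). Socs3 was at 398 CPM in D18 against 356 CPM in D7 (adjusted p = 0.50). Stat3 was higher in D32 than in P-RPE by 1.09 (adjusted p = 5.4e-06), and Socs3 was lower by -1.29 (adjusted p = 1.3e-04).

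Of the receptors, carriers and relatives of the 7 gene products, 18 of 23 were tested. In D7 against MEF 5 rose and 8 fell (28.5% and 26.5% of all genes), and in D18 against D7 5 rose and 9 fell (29.2% and 27.4% of all genes). Slc22a17, a lipocalin-2 receptor, rose by 3.59 in D7 against MEF (adjusted p = 1.2e-10). Lrp2, on the same list, went the other way, with a mean of 5.24 CPM in D7 against 66.2 CPM in MEF. It averaged 36.5 CPM in D18, 49.1 CPM in D32 and 371 CPM in P-RPE. Mmp9, a protease that forms a complex with lipocalin-2, rose by 7.54 in D7 against MEF (adjusted p = 1.8e-11) and fell by 5.49 in D18 against D7 (adjusted p = 1.4e-10). Cd163, the macrophage receptor for haptoglobin bound to haemoglobin, was at 0.588 CPM in D32 against 5.90 CPM in P-RPE (log2 difference -3.32, adjusted p = 2.8e-04). Steap1 and Steap2, relatives of Steap4, rose by 2.25 and 2.98 in D32 against D18 (adjusted p = 3.5e-07 and 3.2e-10), where Steap4 was lower. In D18 against D7, where Steap4 was higher, both fell by 1.18 (adjusted p = 1.8e-04 and 2.0e-06), a comparison added for these genes after their values were seen. Lrp1, the scavenger receptor of haemopexin, was at 2915 CPM in D32 and 2934 CPM in MEF (adjusted p = 0.97).

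Lcn2 is listed among the genes of reactive astrocytes, and 11 pan-reactive genes from outside the 7 were followed beside it. That list leaves out all of the 7, so it does not show which others of them, such as Steap4, are pan-reactive. In D7 against MEF, where Lcn2 first appeared, 5 rose and 5 fell (median log2 difference 0.07; 28.5% and 26.5% of all genes). In D18 against D7 9 rose and none fell (29.2% and 27.4% of all genes), and in D32 against D18 none rose and 8 fell (29.9% and 26.1% of all genes). S1pr3, a sphingosine phosphate receptor, rose by 4.49 in D18 against D7 (adjusted p = 5.7e-11) and had a log2 difference of -3.32 in D32 against D18 (adjusted p = 4.4e-10). Gfap, the astrocyte intermediate filament, reached 26579 CPM in D18, against 331 CPM in D7 (log2 difference 6.33, adjusted p = 1.9e-09). Of the 11 genes of the neuroinflammatory set 5 rose and 4 fell in D18 against D7, and of the 12 of the ischaemic set 7 rose and 3 fell. In D32 against P-RPE, 9 of the 11 pan-reactive genes were higher and none lower (27.1% and 26.8% of all genes). Among them Timp1, an inhibitor of metalloproteases, was higher by 6.08 (adjusted p = 1.4e-06). In the same comparison the counts were 3 higher and 5 lower for the neuroinflammatory set and 10 higher and 1 lower for the ischaemic one. The lists share genes, so their counts are not separate. Cp and Serpina3n are both positive acute-phase and pan-reactive genes, and Osmr is also on the receptor list. The ischaemic set shares Ptx3 and Cd14 with the positive acute-phase list and Clcf1 with the cytokines.

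Of the genes that liver normally makes and lowers in the acute phase, 5 of 8 were tested. In D7 against MEF 4 rose (of all genes 28.5% rose and 26.5% fell). Among them was Alb, the albumin gene, at 10.7 CPM in D7 against 0 in MEF (adjusted p = 1.9e-07). In D18 against D7 1 rose and 1 fell (29.2% and 27.4% of all genes). In D32 against P-RPE 1 rose and 3 fell (27.1% and 26.8% of all genes). Hnf4a, a hepatocyte regulator with counts also in P-RPE, was at 8.36 CPM in D32 against 76.2 CPM in P-RPE (log2 difference -3.19, adjusted p = 3.5e-06) and at 0 counts in D18.

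The genes whose level over the 14 libraries was most like that of Lcn2, by Pearson correlation of log2 CPM among 12197 genes, were Aqp4 (r = 0.991), C3 (0.990), Sel1l3 (0.989), Ntsr2 (0.984) and Itih3 (0.981). Aqp4, the water channel of astrocytes and other glia, averaged 70.6 CPM in D7, 2165 CPM in D18, 198 CPM in D32 and 3.86 CPM in P-RPE. For Saa3 they were Fam167a (0.980), Ism1 (0.978), Alb (0.976), Casp4 (0.975) and Chl1 (0.968). For Steap4 they were 2510009E07Rik (0.993), E130114P18Rik (0.992), Gdpd2 (0.985), Cdh22 (0.985) and Slc1a2 (0.983). These are correlations over 14 libraries of 5 groups, so they mostly restate the differences between group means.

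For Hp the nearest genes were Ifi205 (0.972), Ecrg4 (0.971), Lcn2 (0.969, itself of the 7), Itih3 (0.967) and Lgi2 (0.964). Of the rarer genes, Saa1 was nearest to Hp (0.972) and Lcn2 (0.970), both of the 7, and Orm1 to Hp (0.905), while Saa2 was nearest to Aspg (0.961), which is also on the pan-reactive list. Ranked by Spearman correlation, 2 of the first 5 stayed for Lcn2, 1 for Saa3 and 0 for Steap4, so the lists depend on the measure.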

How the data were processed

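RNA was measured in 14 mouse libraries, which, per the labels' protocols, were made from TRIzol extracts with a NEBNext Ultra RNA kit and read from both ends on a NovaSeq. The values used are raw read counts per gene symbol, as deposited. In the submitters' processing notes stand STAR 2.7.11a, featureCounts, edgeR 4.0.16 and limma 3.58.1 and the builds mm10, GRCm38 and GRCh38, without the role of each. Strand setting, treatment of reads with several matches and annotation release are not given in the sources used here. A table of 10 human columns was not used here. No 2 libraries held identical counts.

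Groups came from the sample titles. Of 55291 symbols, 53292 matched GENCODE vM21. Genes were filtered with edgeR's filterByExpr by group, libraries were scaled by TMM, and 1 quasi-likelihood model of 5 group means was fitted to all 14 libraries (edgeR 4.0.16, R 4.3.3; robust dispersions). Calls were made at a Benjamini-Hochberg adjusted p under 0.05 over all genes tested, with no minimum fold. SE is the log2 difference over the square root of F. A fold against a group at 0 uses a floor of 3 counts over the group. The fit was tried on simulated counts for D18 against D7 only, at a fixed spread and with changes in well-counted genes. That trial does not cover P-RPE or genes with few counts. No pairing by replicate number was seen: correlations of same-numbered deviations ran between -0.0967 and 0.0953 over 14 same-numbered pairs. With so few libraries a group, they cannot exclude that same-numbered samples shared a culture or animal.

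The 7 genes, the 9 pathway lists and the 7 marker lists were chosen with earlier results of these data known. Genes named from a list are among the 3 with the largest called log2 difference each way and a mean level of 1 CPM or more, and the most abundant not called; the text names some of these. Patterns were compared on log2 CPM (prior count 2) among genes whose highest group mean was 10 CPM or more. Promoters are RefSeq's, 5 of 7 genes matched. Other settings tried were DESeq2 1.42.0, scaling by RLE size factors or by totals only, a looser and a stricter filter, a fit of the 2 groups compared, a replicate block and the removal of each library.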

Additional observations from a re-analysis of the deposited data

How the results depend on the processing

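Counts of genes and of list genes called stayed within 1.5 times of the values above under every alternative run. The list genes given above with an adjusted p kept their side of the threshold and direction, in the comparisons they are named for. This held under RLE, totals only, no filter, the replicate block and each library left out. Leaving out 1 library gave 10043 to 10588 genes called in D7 against MEF, 10425 to 11182 in D18 against D7, 10355 to 11362 in D32 against D18, 11124 to 12303 in D32 against MEF and 8869 to 11113 in D32 against P-RPE. Of the 7 acute-phase genes, the number without overlap was 2 to 6 in D32 against D18 (6 without D18 replicate 3, 4 without D32 replicate 2), 5 to 7 in D18 against D7 and 6 to 7 in D32 against P-RPE. A group with a library removed separates more easily for any gene, so these ranges are not read as results about the 7. Without MEF replicate 3, which held its 1 count, Saa3 in D7 against MEF had a log2 difference of 17.45 in place of 15.49. Scaling by totals only shifted the median gene by 0.32, -0.21, 0.09, 0.20 and 0.23 in the 5 comparisons in the order above; the share of higher calls then went to 69.7% in D7 against MEF (51.8% with TMM), 40.7% in D18 against D7 (51.6%) and 62.1% in D32 against P-RPE (50.2%). The replicate block, by numbers whose meaning the labels do not give, gave 11138 genes called in D7 against MEF, against 11302 without it. It gave 87 list genes against 88 in D18 against D7. Saa1, Saa2 and Orm1 rest on few counts, and P-RPE on 2 libraries.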
